A study of Mus musculus with 12 samples.

Results

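Maff and Mafg encode 2 of the small Maf transcription factors, and this account describes their transcripts in the mouse hippocampus across genotype and kainate treatment. Every probe set that the platform annotation assigns to one of these genes and to no other gene was taken, which gave 3 of the 12411 probe sets and 2 of the 7542 genes named by a probe set of their own, with 1 probe set for Maff (163984_at) and 2 for Mafg (113323_at and 105932_at). The study measured hippocampal RNA 1 h after an intraperitoneal injection with Affymetrix MG-U74B arrays. Its 4 groups held 3 arrays each, namely labelled mutant animals given kainate at 20 mg/kg, labelled mutant animals given saline, control animals given kainate at 20 mg/kg, and control animals given saline. Kainate is a glutamate receptor agonist that evokes seizures. All animals were male and female littermates 5 to 6 weeks old that were caged singly and handled for 5 days before the injection, and each array carried RNA pooled from 3 animals. The title of the series names loss of CREB and CREM, transcription factors that act downstream of cAMP and calcium signals, as the mutation. The labels of the samples say only "mutant" and give neither alleles nor the cells in which the genes were deleted, and they do not say how the sexes were divided among pools. In whole tissue, a change in the number of cells that hold a transcript and a change in the amount per cell cannot be told apart.

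Small Maf proteins carry a basic leucine zipper, with which they bind DNA, but no activation domain of their own. They pair with one another, which is known to repress, or with CNC family factors such as NRF2 and with BACH proteins, and these pairs bind Maf recognition elements and antioxidant response elements of stress genes. Maff is known as a member whose transcript is induced by cytokines and stress, while Mafg is known as a broadly present member, and in mice loss of Mafg is known to cause neurological defects.

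The promoter windows of both genes are given first, because CREB and CREM, which the series title names, bind the cAMP response element and because the 2 genes differed in their response. RefSeq windows (GRCm38.p6) from 250 bases before to 50 bases after each annotated start site were searched on both strands, and the table held 3 windows for Maff and 1 for Mafg. The second Maff window, chr15:79347270-79347569 on the plus strand, held a full cAMP response element (CRE, TGACGTCA) at positions -29 to -22 from the start site. The Mafg window, chr11:120633498-120633797 on the minus strand, held no full CRE and 1 CRE half-site (TGACG), at positions -22 to -18. The half-site was searched on both strands, and it also lies within every full CRE. The Mafg window further held 1 antioxidant response element (ARE, TGACNNNGC) on its opposite strand, at positions -222 to -214. In the sequences below, capitals mark these matches.
Maff window 2: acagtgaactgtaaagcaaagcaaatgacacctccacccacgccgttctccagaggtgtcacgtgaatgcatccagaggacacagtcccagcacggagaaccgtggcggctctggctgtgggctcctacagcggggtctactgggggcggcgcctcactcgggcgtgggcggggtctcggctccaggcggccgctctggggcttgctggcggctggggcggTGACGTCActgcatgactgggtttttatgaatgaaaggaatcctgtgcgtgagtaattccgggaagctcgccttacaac
Mafg window 1: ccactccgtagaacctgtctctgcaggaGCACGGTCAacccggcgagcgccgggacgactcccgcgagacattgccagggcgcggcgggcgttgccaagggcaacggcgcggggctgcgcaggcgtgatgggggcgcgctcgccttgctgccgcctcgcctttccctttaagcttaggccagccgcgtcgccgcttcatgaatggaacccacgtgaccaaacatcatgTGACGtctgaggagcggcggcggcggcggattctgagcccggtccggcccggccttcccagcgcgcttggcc

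Across 32851 mouse windows of the same length, 1.79% held the full CRE, 20.8% a half-site and 12.4% an ARE. The first Maff window held 1 ARE and no half-site, and the third held 1 half-site and no ARE. None of the 4 windows held the AP-1 element TGANTCA (7.81% of all windows), the core TGCTGA of the Maf recognition element (19.5%), a CArG box, the element that serum response factor binds (1.63%), or TATAAA (13.6%). A match of letters is not a measured binding site, and the arrays do not tell from which start site the Maff transcripts came.

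**Figure D1:**
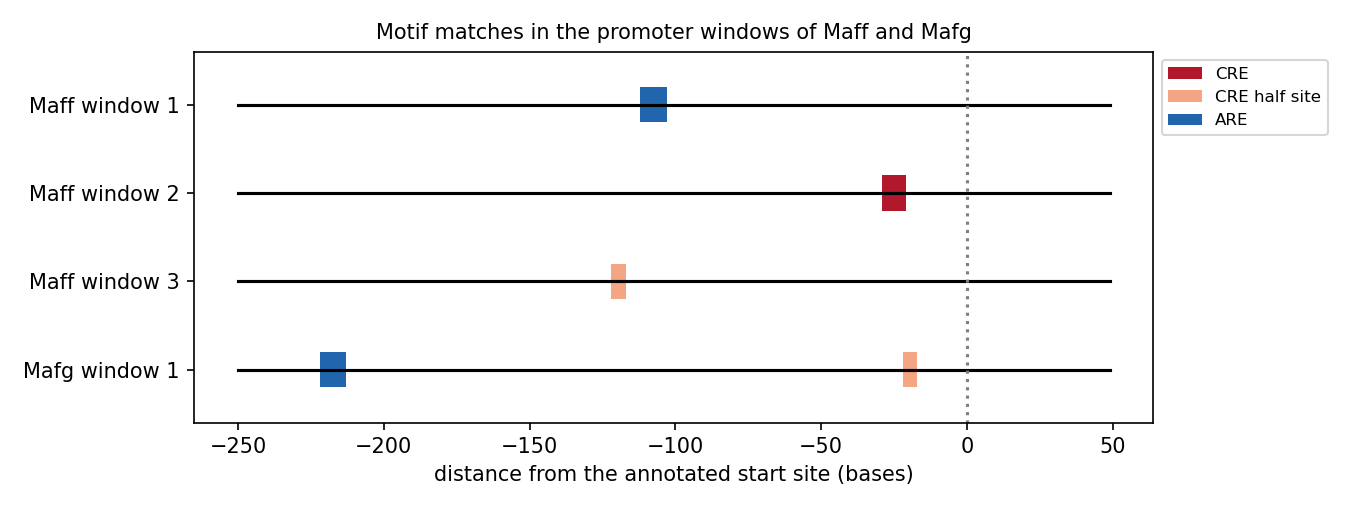
Motif matches in the 3 promoter windows of Maff and the window of Mafg, by distance in bases from the annotated start site (dotted line). The second Maff window carries the full CRE close to the start site, and the Mafg window carries a half-site at a similar distance.

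The labels and the tissue were checked on the same arrays. Medians of the 12 arrays lay between 3.77 and 4.07 on the log2 scale, and the level required for testing, a value over 4 in at least 3 arrays, was met by 6334 of 12411 probe sets. The Creb1 probe set was higher and not lower in arrays labelled mutant, with a mean log2 value of 7.97 ± 0.44 in labelled mutant arrays and 6.98 ± 0.15 in control arrays after kainate, and of 8.23 ± 0.12 in labelled mutant arrays and 7.35 ± 0.35 in control arrays with saline (SD, n = 3 each). The Crem probe set had group means from 2.93 to 3.16, under the level required for testing. The labels do not place these probes inside or outside a deleted stretch, so they do not check the genotype, and directions between genotypes below rest on the labels alone. Of 10 principal neuron markers listed, 4 were tested, and Slc17a7, the vesicular glutamate transporter of these neurons, lay between 10.5 and 10.9 in all arrays. The other 3, Fibcd1, Bcl11b and Neurod2, had lower means in labelled mutant arrays, as given with Mafg below.

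Maff rose after kainate in both genotypes. The Maff log2 values were 5.43, 6.72 and 5.95 in replicates 1, 2 and 3 of labelled mutant arrays with kainate, against 3.30, 3.27 and 3.58 in labelled mutant arrays with saline. In control animals they were 5.97, 5.94 and 5.59 with kainate, against 3.59, 3.91 and 3.54 with saline. All 6 kainate arrays lay above all 6 saline arrays, without overlap in either genotype, and the widest spread was that among the labelled mutant kainate arrays. Of all tested probe sets, 1.45% were separated upward in this way in both genotypes. Maff met the level for testing through its kainate arrays alone, as given below, which favours such a separation.

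**Figure D2:**
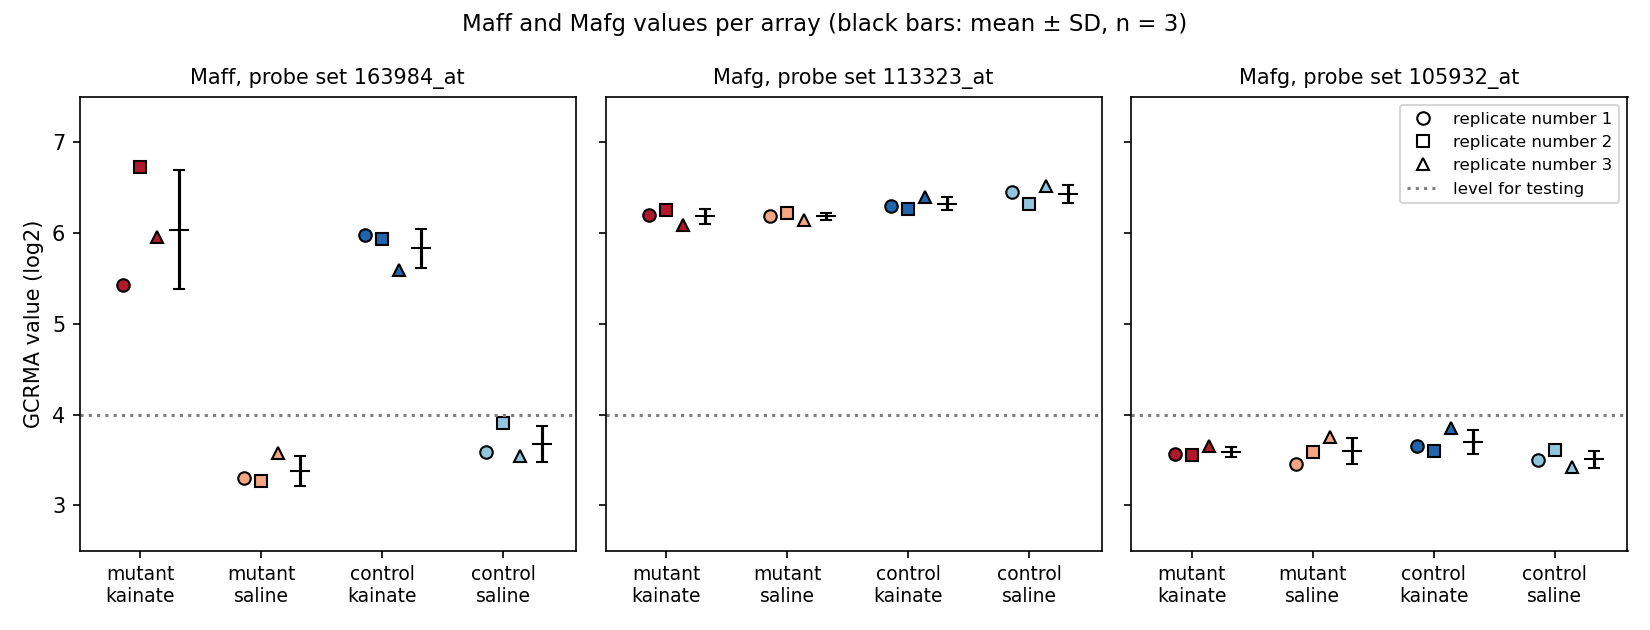
GCRMA values (log2) of the Maff probe set and both Mafg probe sets in each of the 12 arrays, by group, with symbols for the replicate number, black bars for the mean ± SD (n = 3) and a dotted line at the level for testing. Maff lies above the line in the 6 kainate arrays and below it in the 6 saline arrays, while each Mafg probe set stays on 1 side of it.

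In labelled mutant arrays Maff averaged 6.04 ± 0.65 with kainate and 3.38 ± 0.17 with saline (SD, n = 3 each), a change of 2.65 on the log2 scale (6.30-fold, 95% interval 2.05 to 3.26, limma adjusted p = 0.00219). In control arrays it averaged 5.83 ± 0.21 with kainate and 3.68 ± 0.20 with saline, a change of 2.15 (4.44-fold, 95% interval 1.55 to 2.75, limma adjusted p = 0.0099). Averaged over genotypes the change was 2.4 (95% interval 1.98 to 2.83, limma adjusted p = 0.000201). An exact two-sided permutation of treatment labels within genotypes gave p = 0.005 for this average, the smallest value its 400 arrangements allow. By the same limma test 0.174% of all probe sets were called in labelled mutant arrays (0.363% with the replicate number as a block), 0.158% in control arrays (0.584% with the block) and 0.41% for the average (7.63% with the block). Counting rises alone, the shares without the block were 0.174%, 0.142% and 0.3%. The saline values of Maff were below 4 in all 6 arrays, so the probe set met the level for testing through its kainate arrays alone, and a probe set that enters in this way had to differ. The fit without that filter gave adjusted p-values of 0.00165 in labelled mutant and 0.00915 in control arrays. The saline values, from 3.27 to 3.91, lay under the level for testing and near the array medians of 3.77 to 4.07. GCRMA compresses differences among low signals.

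Marker lists of other cells were read on the same arrays, and none of their probe sets passed the limma test for kainate. That test called only 0.41% of all tested probe sets for the average over genotypes. The summed linear signal of the 6 tested of 8 listed astrocyte genes was 14831 to 15406 with kainate and 15824 to 17397 with saline in labelled mutant arrays, and 12729 to 14128 with kainate and 13594 to 14559 with saline in control arrays. With the block, 1 of the 10 astrocyte probe sets fell on average, a probe set of the glutamate transporter gene Slc1a3 (-0.89, adjusted p = 0.0301). The other Slc1a3 probe set gave -0.24 and did not pass. As 7.63% of all tested probe sets were called there with the block, this count is near the general share. The sum of the 3 tested of 8 listed microglia genes was 246 to 306 with kainate and 204 to 252 with saline in labelled mutant arrays, and 183 to 199 with kainate and 167 to 179 with saline in control arrays. Gad2, which makes GABA in interneurons and was the only 1 of 8 interneuron markers tested, had a linear signal of 43.5 to 67.0 with kainate and 83.0 to 107 with saline in labelled mutant arrays, and of 16.0 to 66.2 with kainate and 63.6 to 111 with saline in control arrays. Clic6, the only 1 of 5 choroid plexus markers tested, gave changes of -0.39 in labelled mutant and -1.54 in control arrays. The part of these cells in the Maff change was not tested.

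The call in control animals was sensitive to single arrays. It was lost without control saline replicate 1 (2.11, limma adjusted p = 0.0514) or replicate 3 (2.08, adjusted p = 0.0702), and without control kainate replicate 1 (2.08, adjusted p = 0.0543) or replicate 2 (2.10, adjusted p = 0.0726). In labelled mutant arrays the call held in all 12 fits that left out 1 array, with changes from 2.31 to 2.96.

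The response of Maff was present within each replicate number. In labelled mutant arrays the differences between kainate and saline were 2.13, 3.45 and 2.38 for numbers 1, 2 and 3, and in control arrays they were 2.38, 2.03 and 2.04. Number 2 therefore gave the highest of the 3 differences in labelled mutant arrays and the lowest in control arrays. Ranked among all 6334 tested probe sets, Maff was 3rd, 1st and 4th of the rises by number in labelled mutant arrays and 4th, 6th and 5th in control arrays. These ranks rest on saline values under the level for testing, so they order summarised signals only.

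**Figure D3:**
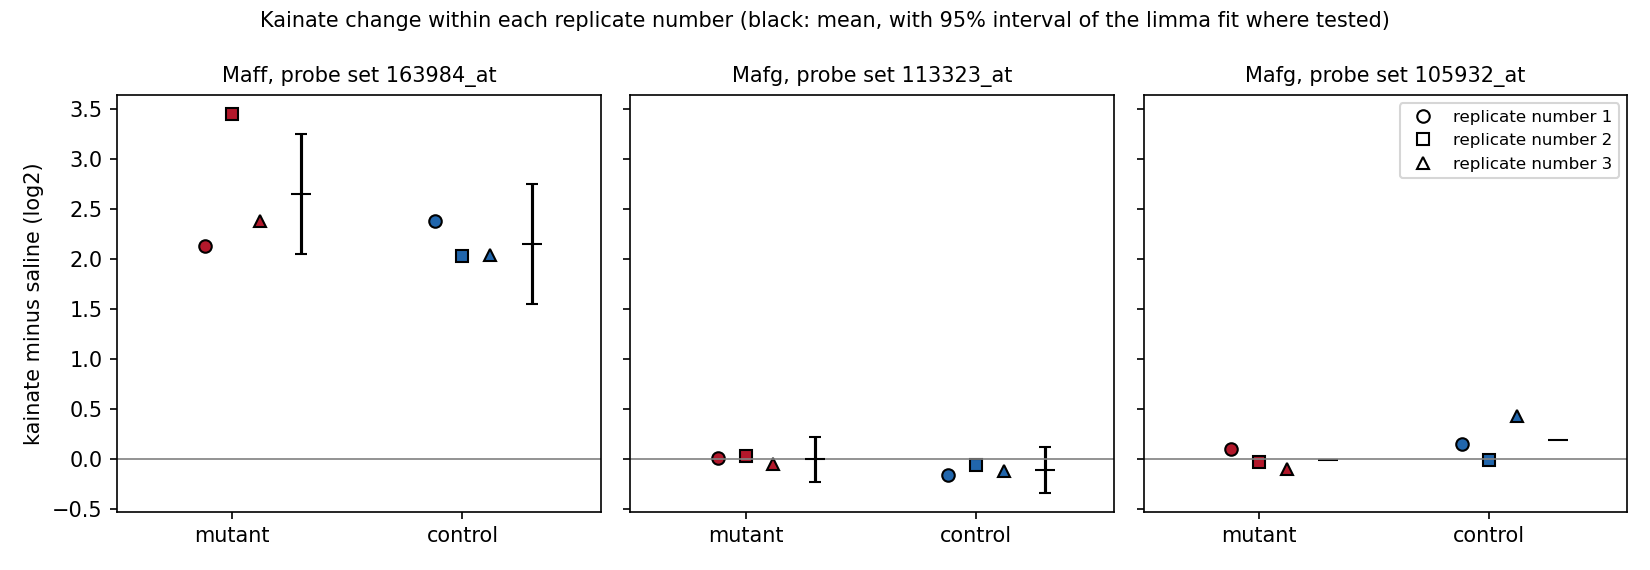
Difference between kainate and saline (log2) within each replicate number for the Maff probe set and both Mafg probe sets, in labelled mutant (left, red) and control arrays (right, blue), with the mean in black and, where the probe set was tested, its 95% interval from limma. The 6 Maff differences lie between 2.03 and 3.45, and those of Mafg lie between -0.16 and 0.43.

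**Figure D4:**
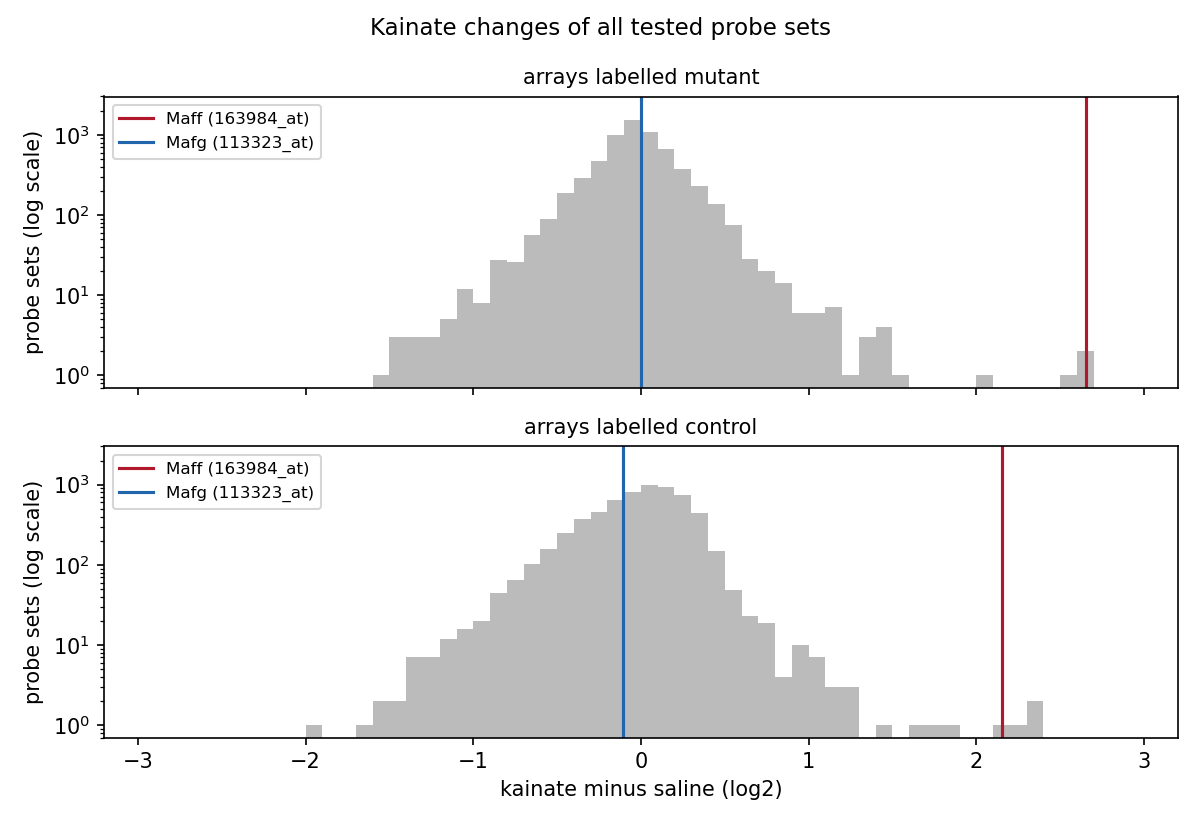
Number of tested probe sets (log scale) by their kainate change (log2, bins of 0.1) in arrays labelled mutant (top) and control (bottom), with Maff in red and the tested Mafg probe set in blue. Maff lies at the upper end at 2.65 and 2.15, and Mafg lies in the bulk at -0.0011 and -0.11.

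The loss of CREB and CREM named by the title raises the question whether the Maff response depended on the genotype. The response was larger by 0.50 in labelled mutant than in control arrays, with a 95% interval from -0.35 to 1.35, and the test of this difference did not pass (limma adjusted p = 1, with an unadjusted p of 0.218). No probe set passed this test by limma (0% called), and 147 had an unadjusted p under 0.05. It was 0.16 without labelled mutant kainate replicate 2 and 0.81 without labelled mutant kainate replicate 1. The interval includes a response as large in both genotypes, and it also includes a response that is 0.35 smaller in labelled mutant arrays, so it does not show that the genotypes act alike. After kainate the level of Maff differed by 0.20 between labelled mutant and control arrays (95% interval -0.40 to 0.81, limma adjusted p = 0.954, with 0.0632% of probe sets called), and the 2 groups overlapped. Without labelled mutant kainate replicate 2 this difference was -0.14. With saline it was -0.30 (95% interval -0.90 to 0.30, limma adjusted p = 1, with 0% called), between values that were all below the level for testing. The CRE shown above in the second Maff window is thus found in a gene whose rise after kainate passed the test in arrays labelled mutant, and the part of that element in the rise was not tested.

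Mafg showed no detectable change after kainate. Its tested probe set, 113323_at, had log2 values of 6.20, 6.25 and 6.09 in labelled mutant arrays with kainate, against 6.18, 6.22 and 6.14 in labelled mutant arrays with saline. In control arrays the values were 6.29, 6.27 and 6.40 with kainate, against 6.45, 6.32 and 6.52 with saline. Kainate and saline values overlapped in both genotypes, and all 12 arrays lay within 0.43 of each other. The change was -0.0011 in labelled mutant arrays (95% interval -0.23 to 0.23, limma adjusted p = 1) and -0.11 in control arrays (95% interval -0.34 to 0.12, limma adjusted p = 0.639). The sign in labelled mutant arrays turned to 0.025 with quantile normalization, so no direction is given. Within the replicate numbers the control differences were -0.16, -0.05 and -0.12, and the control change was -0.026 with quantile normalization and -0.054 with centring on the median. For the average over genotypes the exact two-sided permutation p was 0.25.

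The second Mafg probe set, 105932_at, stayed below the level for testing in all 12 arrays, with values from 3.42 to 3.85. It averaged 3.59 ± 0.05 with kainate and 3.6 ± 0.15 with saline in labelled mutant arrays, and 3.70 ± 0.13 with kainate and 3.51 ± 0.09 with saline in control arrays (SD, n = 3 each). The groups overlapped in both genotypes. For the change averaged over genotypes, 0.09, the exact two-sided permutation p was 0.225. No detection calls were part of the table, so a low Mafg signal and background cannot be told apart for this probe set.

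Between genotypes the tested Mafg probe set was lower in every labelled mutant array than in every control array of the same treatment, without passing the test. With saline it averaged 6.18 ± 0.04 in labelled mutant arrays and 6.43 ± 0.10 in control arrays, a difference of -0.25 (95% interval -0.48 to -0.02, limma adjusted p = 1, unadjusted p = 0.0352). With kainate it averaged 6.18 ± 0.08 in labelled mutant arrays and 6.32 ± 0.07 in control arrays, a difference of -0.14 (95% interval -0.37 to 0.09, limma adjusted p = 0.92). Such downward separation with both treatments was seen in 1.25% of all tested probe sets. Averaged over treatments, which was compared as an addition once the data had been seen, the difference was -0.19 (1.14-fold, 95% interval -0.36 to -0.03, limma adjusted p = 0.619), while 0.253% of probe sets were called (2.32% with the replicate number as a block, where the Mafg adjusted p was 0.278). The other Mafg probe set gave -0.01 for the same comparison. All 10 astrocyte probe sets had higher means in labelled mutant arrays averaged over treatments (median 0.18), of which 0 passed by limma and 2 with the block, those of Aqp4 and Mlc1. The astrocyte and microglia sums given above lay higher in every labelled mutant array than in every control array of the same treatment, although Slc1a2 alone carries much of the astrocyte sum. Of 3 microglia probe sets, 1 passed by limma, that of Plek (1.24, adjusted p = 0.042), and 2 with the block, those of Plek and Siglech (median 0.61). Of 6 principal neuron probe sets, 5 had lower means in labelled mutant arrays (median -0.43), of which 0 passed by limma and 2 with the block, those of Fibcd1 (-0.61) and 1 of the 3 of Bcl11b (-0.84). The summed signal of the 4 tested principal neuron genes was 2356 to 2498 in labelled mutant and 2845 to 2999 in control arrays after kainate, and 2129 to 2678 in labelled mutant and 2366 to 2859 in control arrays with saline. The part of these cells in the Mafg difference was not tested.

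The responses of the probe sets to kainate were compared directly, as the difference of 2 log2 values within an array. The Maff response exceeded that of Mafg probe set 113323_at by 2.46, by 2.66 in labelled mutant arrays (2.12 to 3.42 over the replicate numbers) and by 2.26 in control arrays (2.08 to 2.54). The exact two-sided permutation p was 0.005, the smallest that 400 arrangements allow, and 0.0075 after adjustment over the 3 pairs of probe sets. Swapping labels only within a genotype and replicate number gave a permutation p of 0.0312, the smallest that 64 arrangements allow, and 0.0469 after the same adjustment. The 2 genes were chosen with earlier results of these data known, so these p-values describe the gap and are not independent support for it. The other 2 pairs involve Mafg probe set 105932_at, whose signal cannot be told from background, and are not read.

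The genes whose values were most like those of Maff over the 12 arrays were Dusp5 (Pearson r = 0.958), Csrnp1 (0.958), Spry2 (0.95), Fosl2 (0.931) and Trib1 (0.924), out of 5923 tested probe sets of other genes. These correlations are a description, and they are set mainly by the gap between kainate and saline arrays that the genes share. Dusp5, a phosphatase that inactivates ERK in the nucleus, changed by 2.65 in labelled mutant and 2.37 in control arrays. Csrnp1, a nuclear factor of the immediate early kind, changed by 2.04 in labelled mutant and 2.34 in control arrays. Spry2, which restrains signalling by receptor tyrosine kinases, changed by 1.43 in labelled mutant and 1.29 in control arrays. Fosl2, a subunit of AP-1, changed by 1.06 in labelled mutant and 1.03 in control arrays on this probe set, and by 0.79 and 0.84 on its second. Trib1, a pseudokinase gene, changed by 2.52 in labelled mutant and 2.24 in control arrays. The 5 most similar probe sets passed the limma test in both genotypes. Of all tested probe sets, that test called 0.174% in labelled mutant and 0.158% in control arrays. Passing a kainate test was favoured by the choice of these probe sets, since the Maff values separate by treatment. The second Fosl2 probe set did not pass (limma adjusted p = 0.624 in labelled mutant and 0.38 in control arrays).

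Within the labelled mutant kainate group the order of the replicates differed among these genes. Maff was lowest in replicate 1 and highest in replicate 2, with 1.30 between them. Dusp5 had 10.81, 10.63 and 10.72 in replicates 1, 2 and 3, so replicate 1 was its highest. Csrnp1 followed the order of Maff, with 6.59 in replicate 1 and 7.40 in replicate 2. Spry2 had 10.32, 10.75 and 10.26, and Trib1 had 8.05, 8.29 and 7.74, so replicate 2 was the highest of both and replicate 3 the lowest. On its most similar probe set Fosl2 had 10.01, 10.29 and 10.29, with replicate 1 the lowest. Its second probe set had 9.58, 9.12 and 8.94, with replicate 1 the highest, so no order is given for Fosl2. Promoter windows were found for 4 of the 5 genes, and 0 of these held the full CRE (2.03% of all genes with windows). Dusp5 and Csrnp1 held a half-site (23.0% of all genes) and an ARE (13.99%), Dusp5 held a CArG box (1.81%), and Csrnp1, which has 4 windows, held an AP-1 element (8.97%) and a Maf recognition core (21.7%).

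**Figure D5:**
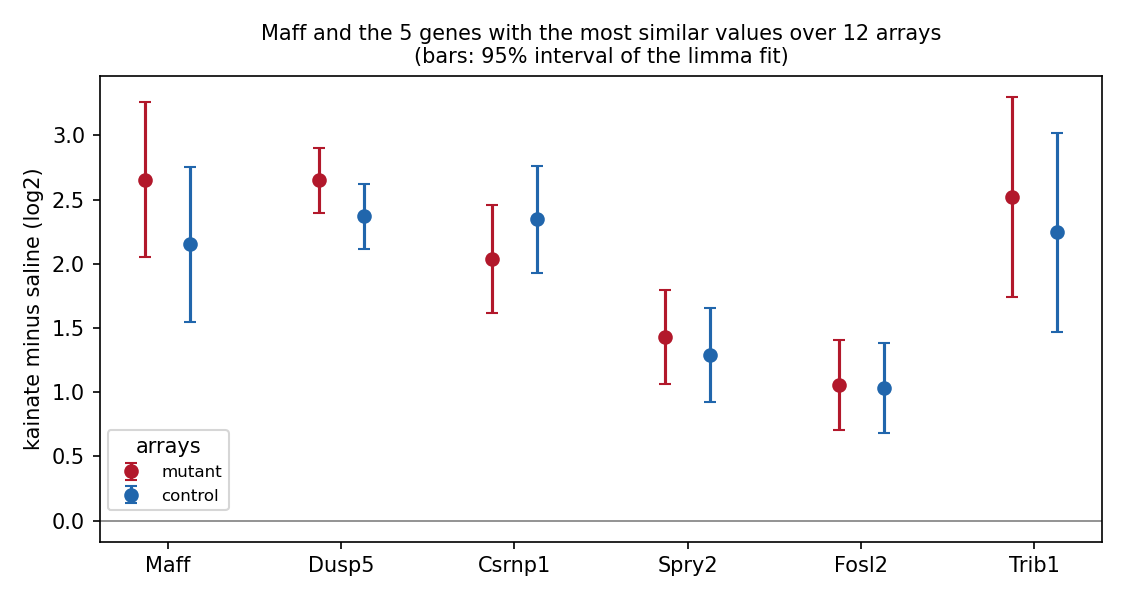
Kainate change (log2) of Maff and of the 5 genes with the most similar values over the 12 arrays, in labelled mutant (red, left of each pair) and control arrays (blue, right), with 95% intervals from limma. The intervals of the genotypes overlap for each gene, and those of Maff and Trib1 are the widest.

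For the tested Mafg probe set the most similar genes were Cfap54 (r = 0.924), a gene of motile cilia, the proapoptotic gene Hrk (0.899), the organic anion transporter gene Slco3a1 (0.85), the nucleotidase gene Nt5c (0.848) and Coq2 (0.846), which acts in ubiquinone synthesis. All 5 had lower means in labelled mutant than in control arrays, averaged over treatments, by -0.36, -0.55, -0.23, -0.32 and -0.94. A difference in the same direction as that of Mafg is favoured by the choice of these genes, since the Mafg values separate by genotype, so the values are a description. Cfap54 lay between 4.04 and 4.59 in control arrays and between 3.82 and 3.99 in labelled mutant arrays. It thus met the level for testing, 4, through the control arrays alone, and its rank and difference are not read further. The Coq2 difference passed the test (limma adjusted p = 0.0353), and with the block those of Hrk (0.0409) and Nt5c (0.0384) passed as well, beside 0.253% of all probe sets called without and 2.32% with the block. The correlation of Maff with the tested Mafg probe set over the 12 arrays was -0.2.

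Few partners of the small Maf factors were measured. None of the 6 CNC and BACH genes listed, among them those for NRF2 and BACH1, had a probe set of its own here. Of 5 other Maf family genes only Maf, a large Maf factor with an activation domain, was tested. The brighter Maf probe set changed by -0.29 in labelled mutant arrays, with a lowest value of 6.53 and a median of 6.75 after kainate, against 6.98, 7.17 and 7.01 with saline. In control arrays it changed by -0.70, with 6.34, 6.21 and 6.41 after kainate against 7.23, 6.93 and 6.90 with saline. Its groups were separate in control arrays, as were those of 6.27% of tested probe sets that fell there, and overlapped in labelled mutant arrays. Averaged over genotypes the change of -0.50 did not pass (limma adjusted p = 0.0865), but the blocked fit gave an adjusted p of 0.021, beside 7.63% of all probe sets called. The second Maf probe set, with values between 3.89 and 4.48, gave -0.21 in labelled mutant and 0.22 in control arrays, so in control arrays its sign opposed that of the brighter one.

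Among 7 genes of the KEAP1 and ubiquitin axis that limits NRF2, Cul3 and Btrc were tested, with 4 probe sets and a median change of -0.55 averaged over genotypes, beside 0.0079 for all tested probe sets. Cul3, the scaffold of the ubiquitin ligase that KEAP1 directs to NRF2, gave -0.75, -0.95 and -0.35 on its 3 tested probe sets. None of these passed (limma adjusted p = 0.165, 0.273 and 0.288), and the first passed with the block (0.0429), beside 7.63% of all probe sets called. The list median rests on these 3 probe sets of 1 gene and that of Btrc, so it does not describe the axis. Btrc gave -0.03.

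Of 14 AP-1 family genes, 3 were tested with 4 probe sets, and 1 probe set rose in each genotype, that of Fosl2 most similar to Maff. By the same test 0.174% of all probe sets were called in labelled mutant and 0.158% in control arrays. With the block the second Fosl2 probe set rose too (adjusted p = 0.0215 in labelled mutant and 0.0188 in control arrays). The block called 0.363% of all probe sets in labelled mutant and 0.584% in control arrays. The other 2 genes, Jdp2, known as a repressor of AP-1, and Atf7, changed by 0.11 and 0.04 averaged over genotypes. The median of the 4 probe sets was 0.44 in labelled mutant arrays, beside -0.04 for all probe sets, and 0.48 in control arrays, beside 0.02. It rests on both Fosl2 probe sets and those of Jdp2 and Atf7, so it does not describe the family.

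Of 36 genes known as targets of antioxidant response elements, 9 were tested with 10 probe sets, and 0 passed for kainate in either genotype or on average, with or without the block. Among 10 probe sets the shares called over all probe sets, 0.174%, 0.158% and 0.41% without and 0.363%, 0.584% and 7.63% with the block, would themselves give fewer than 1, so this count is not a result about these genes. Their median change averaged over genotypes was 0.07, and the largest belonged to the heme oxygenase gene Hmox1 (0.24, limma adjusted p = 0.355), to Gclm, the modifier subunit of glutathione synthesis (-0.18 and -0.15 on 2 probe sets), and to the multidrug transporter gene Abcc1 (0.13). All 3 are within 0.25 of no change. Slc7a11, the cystine transporter, was higher by 0.35 in labelled mutant arrays averaged over treatments, which passed with the block alone (adjusted p = 0.045, against 0.603 without it). For that comparison the block called 2.32% of all probe sets.

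Of 17 immediate early genes, 6 were tested with 8 probe sets. Dusp5 and Csrnp1 rose in both genotypes, and Nr4a3, an orphan nuclear receptor gene, rose by 0.51 averaged over genotypes (limma adjusted p = 0.0323). The median of the 8 probe sets was 0.54 in labelled mutant and 0.69 in control arrays. Averaged over genotypes, 3 of the 8 probe sets rose and 0 fell, beside 0.41% of all probe sets called (0.3% higher), and with the block 6 rose and 1 fell, beside 7.63% called, the last being 1 of the 3 probe sets of Srf, the gene of serum response factor (-0.43), while the other 2 gave 0.73 and 0.64. These counts cover the small part of each list that this array measures.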

How the data were processed

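Total RNA of 3 animals per array was pooled and labelled with biotin, per the labels' protocols. The deposited table held 1 log2 value per probe set and array, for which the submitters' processing notes name R 2.4.1 and GCRMA. This method estimates background from probe sequence and compresses low signals. The sources used here give no settings or build, and the log2 scale of the authors' values was judged from their range (-1.05 to 13.3). After removal of 66 control entries, 12411 probe sets remained, of which 10581 had 1 symbol in the platform annotation.

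The 6334 probe sets that exceeded 4 on 3 or more arrays were fitted with limma 3.58.1 in R 4.3.3, with 1 mean per group over all arrays and eBayes with an intensity trend. Calls were made at 0.05 after Benjamini-Hochberg adjustment over the tested probe sets of a comparison. Single values and pairs of probe sets were tested by exact permutation. All 18 pairs of arrays that share a number correlated over 0.1 in their deviations from the group means (r = 0.361 to 0.881). The main fit and the main permutation left the number out, so their p-values do not take this sharing into account. The replicate number entered an alternative fit as a block, and an alternative permutation that swapped labels within pairs of the same genotype and number. Pairs with different numbers gave r from -0.782 to 0.583. The labels describe replicates as biological but leave the meaning of a number unstated.

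The members and gene lists were chosen with earlier results of these data known. All member probe sets are named. Other genes are the 5 most correlated over 12 arrays with each tested member, and, from each list, those that passed or else up to 3 with the largest average change. The calculations were tested on simulated data. Alternatives were the block, quantile normalization, centring, other filters, no intensity trend, fits on the compared groups alone and left-out arrays. The number of arrays limits the precision. Promoter windows are those of RefSeq.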

Additional observations from a re-analysis of the deposited data

How the results depend on the processing

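The limits are the 3 arrays per group, the low saline signal of Maff and the single tested probe set of either gene. With the replicate number as a block, the Maff change was 2.65 in labelled mutant and 2.15 in control arrays and passed (adjusted p = 0.000562 and 0.00208), and the block changed no call of Maff or Mafg. The permutation that swaps labels within pairs gave p = 0.0312 for Maff, the smallest that its 64 arrangements allow. Fitted on the groups compared alone, the Maff change in labelled mutant arrays (2.65) missed the threshold (adjusted p = 0.135), while that in control arrays passed. The stricter filter, over 6 in 3 arrays, gave no value for Maff. When 1 array or all arrays of 1 number were left out, the Maff change ran from 2.25 to 2.96 in labelled mutant arrays, from 2.03 to 2.27 in control arrays and from 2.23 to 2.55 on average. Without all arrays numbered 2 or 3 neither genotype passed (adjusted p = 0.164 and 0.461 in labelled mutant arrays, 0.122 and 0.99 in control arrays), and without those numbered 3 the average did not pass either (0.105). Without those numbered 1 both genotypes and the average passed (adjusted p = 0.000613 in labelled mutant arrays, 0.00265 in control arrays and 6e-05 for the average). All of these fits hold 2 arrays per group, and what sets the arrays of a number apart was not tested. Differences of Maff between genotypes changed sign when arrays were left out, from -0.14 to 0.58 after kainate and from -0.22 to 0.14 averaged over treatments. The difference of the Maff responses ran from 0.16 to 0.81 without 1 array and from 0.043 to 0.88 without the arrays of 1 number. The Mafg change in control arrays ran from -0.16 to -0.066 when arrays were left out. The Mafg change in labelled mutant arrays was 0.025 with quantile normalization, with or without the block, and 0.027 with centring on the median, and -0.038 to 0.045 when arrays were left out. The cause of these changes was not tested. The number of probe sets called for kainate was 11 in labelled mutant and 10 in control arrays, 23 and 37 with the block, 21 and 26 with the block and quantile normalization, 2 and 5 with the groups compared alone, 6 to 17 and 4 to 14 without 1 array, and 600 and 635 without the arrays numbered 1, against 1 and 1 without those numbered 2 or 3. For the average it was 26, and 483 with the block, 384 with the block and quantile normalization, 43 with centring on the median, 14 to 244 without 1 array (244 without labelled mutant kainate replicate 1), and 1414, 5 and 1 without the arrays numbered 1, 2 and 3. For labelled mutant against control arrays it was 4 after kainate (7 with the block, 8 with the block and quantile normalization, 0 with the groups compared alone, 1 with centring on the median, 1 to 5 without 1 array, and 12, 0 and 1 without the arrays numbered 1, 2 and 3), 0 with saline (9 with the block, 1 with the block and quantile normalization, 1 with the groups compared alone, 0 to 1 without 1 array, and 5, 0 and 1 without the arrays numbered 1, 2 and 3), and 16 averaged over treatments (147 with the block, 126 with the block and quantile normalization, 3 to 16 without 1 array, 46, 0 and 1 without the arrays numbered 1, 2 and 3, 25 with quantile normalization, 28 with centring on the median).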
